A study of Mus musculus with 180 samples.

Results

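The proteasome genes of mouse macrophages were followed across 58 clinical kinase inhibitors (CKIs) given before lipopolysaccharide (LPS). The genes were selected on their symbol (Psm followed by a letter from a to g and a digit), without the immunoproteasome genes Psmb8, Psmb9 and Psmb10 and without pseudogene rows, and were chosen by a measured value as well: a mean of at least 10 normalized units over all samples. This gave 47 genes of the 45070 rows of the table and of the 12714 genes that passed the same minimum and were tested. Psmb11, the thymus-specific catalytic subunit, fell just outside the minimum with a mean of 0.672, and Psma8, the alpha subunit of germ cells, lay just inside with 16, followed by Psmc3ip with 44.6. The symbols also brought in 2 genes that do not encode proteasome parts, Psmc3ip (a recombination factor that binds an ATPase subunit) and Psme3ip1 (a partner of the PSME3 activator), and Psme2b, a close copy of Psme2 with which it may share reads. The row of the pseudogene Psma5-ps was left out and may likewise share reads with Psma5.

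All samples were bone marrow-derived macrophages (BMDM) of wild type mice (young C57/BL6 males per the study's methods), pre-treated for 1 h with 1 CKI or with the solvent DMSO and then stimulated for 2 h with 10 ng/ml LPS, a bacterial product sensed by TLR4. Each CKI had 3 samples, and DMSO had 6 in 2 sets of 3 (DMSOs1 and DMSOs2), 180 samples in all, every one with LPS, so that each comparison shows a CKI against DMSO in stimulated cells. Doses differed between CKIs, so values of CKIs are given side by side and no CKI was tested against another. Per the study's methods, the 3 samples of a CKI were independent biological replicates, and the labels do not tie them to mice.

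The 26S proteasome is the barrel-shaped protease that degrades proteins tagged with ubiquitin. Its 20S core is built of rings of alpha subunits (Psma genes), which form the gate, and beta subunits (Psmb genes), of which Psmb5, Psmb6 and Psmb7 encode the catalytic ones. A 19S cap, with a ring of ATPases (Psmc genes) that unfold substrates and non-ATPase subunits (most Psmd genes) that bind and deubiquitinate them, opens the core. PA28 and PA200 activators (Psme genes) can take the place of the cap. Psmf1 encodes the inhibitor PI31, and Psmg1 to Psmg4, Psmd5, Psmd9 and Psmd10 encode assembly chaperones. In macrophages the proteasome also degrades the inhibitor of NF-κB after LPS and supplies peptides for antigen presentation.

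Normalized values summed to between 9477340 and 12273349 per sample, which reflects the scaling done by the authors and not the depth, which is unknown here. Transcripts of the mitochondrial genome took 1.15% ± 0.438 (SD, n = 6) of the normalized values in DMSO and group means from 0.834% to 3.66% in the CKIs. The 8 macrophage markers (Adgre1, Csf1r, Cd68, Itgam, Lyz2, Fcgr1, Mertk, Cd14) were present, summing to 99709 to 216444 in DMSO, whereas T cell markers summed to at most 2 and erythroid markers to 0 there. Neutrophil markers (Ly6g, S100a8, S100a9, Elane) summed to 172 to 520 in DMSO. In bulk samples fewer cells and less RNA per cell cannot be told apart.

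The level of each gene in DMSO, as the normalized value per kb of exon (mean ± SD, n = 6), spanned from 7.58 ± 2.32 for Psma8 to 3299 ± 177 for Psmb6, the caspase-like catalytic subunit. Among the 7 beta genes the levels ran from 675 ± 181 for Psmb7, the trypsin-like catalytic subunit, to that of Psmb6, with Psmb5, the chymotrypsin-like one, at 2607 ± 273. The 6 ATPase genes lay lower as a group, from 277 ± 79.6 for Psmc6 to 813 ± 63.1 for Psmc3. The median of the 20S alpha genes was 998 against 1465 for the 20S beta genes, 653 for the ATPases and 523 for the 11 non-ATPase genes. Within the non-ATPase genes Psmd8 stood highest at 2735 ± 360 and Psmd3 lowest at 86.2 ± 26.6. The PA28 genes Psme1 (2717 ± 324) and Psme2 (2479 ± 358), which interferon induces, were near the top of all members, while Psme3 (44.9 ± 9.44), the nuclear PA28 gamma, and Psme4 (12.4 ± 4.48), the PA200 activator, were near the bottom. The assembly chaperones had a median of 182. The coefficient of variation of a gene over the DMSO samples had a median of 15.4% in the members against 22.8% over all genes tested, and the members had shorter exonic length (median 1436 against 2807 bases). Psma2 varied the most of the alpha genes in DMSO, with a coefficient of variation of 38.2%.

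**Figure D1:**
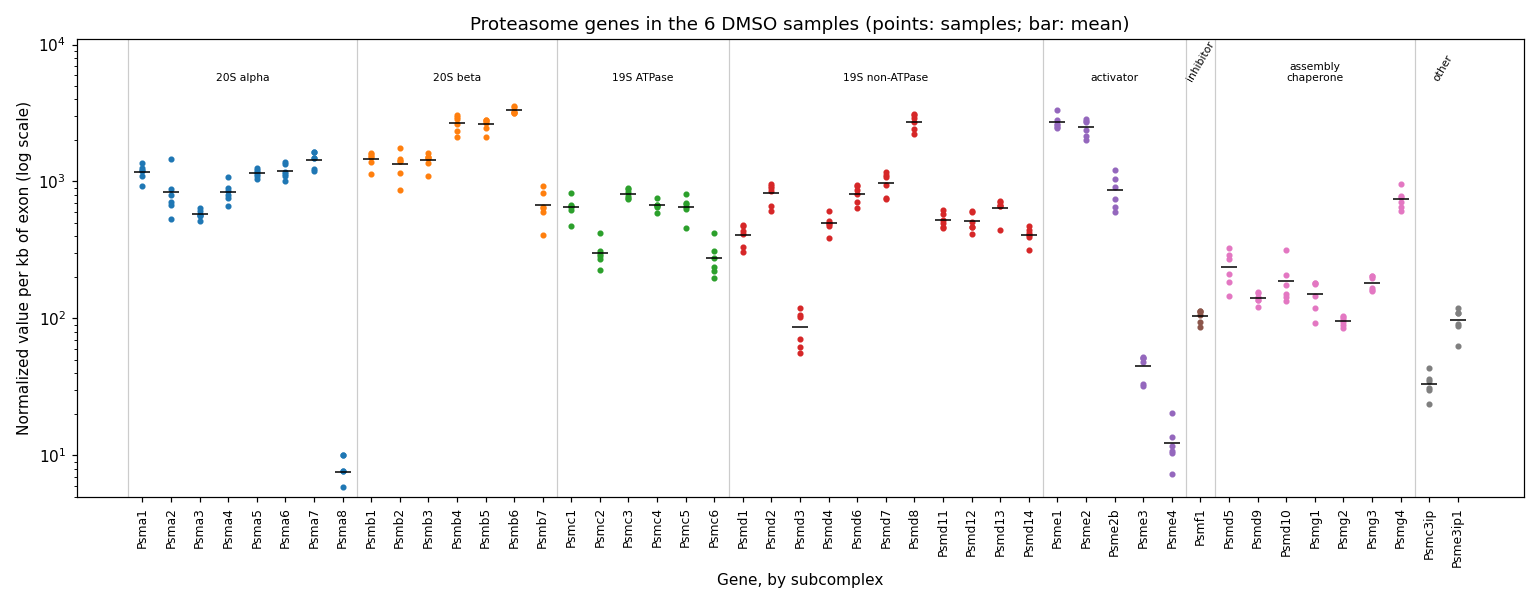
Level of the 47 genes in DMSO, as normalized value per kb of exon on a log axis, by subcomplex. Points are the 6 DMSO samples and bars their mean. The beta gene Psmb6 sits highest near 3299 and Psma8 lowest near 7.58, and the ATPases lie between 277 and 813.

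The members were compared with DMSO in 1 fit of all genes and all 59 groups (limma on log2 of the value plus 1, with a Benjamini-Hochberg adjusted p under 0.05 as the call). Over the 2726 pairs of a member and a CKI, 112 were raised, which is 4.11% beside 2.52% of the pairs of all genes tested. Another 20 were lowered, 0.734% beside 1.65% of all pairs. Calls fell in 14 of the 58 CKIs, and 87 of the 112 rises in 5 of them. Raised in at least 1 CKI were 29 members, 11 were lowered in at least 1, and Psmg3 was in both sets. The other 8 were not called in this fit (Psma5, Psma8, Psmb4, Psmd2, Psmd3, Psme1, Psmg1 and Psmg2). These counts by gene were not made over all genes tested. The median log2 fold change of the members lay above that of all genes in 50 of the 58 CKIs and had a median over CKIs of 0.16 against 0.08 for all genes. Over all CKIs the median log2 fold change was 0.27 for the ATPases (31 of 348 pairs raised, 0 lowered). It was 0.18 for the alpha genes (23 raised, 1 lowered of 464), 0.19 for the beta genes (29 raised, 1 lowered of 406) and -0.02 for the non-ATPase genes (14 raised, 11 lowered of 638). Each comparison used the same DMSO samples. The split between rises and falls depended on the scaling, since 84.8% of the calls were rises with the deposited scaling and 66.4% (71 raised, 36 lowered) after rescaling each sample by the median of ratios. That rescaling moved the median of all genes by more than 0.1 on the log2 scale in 18 CKIs, most in BGT226 (-0.20). Without replicate 2 of every group only 6 rises and 3 falls passed. Without replicate 3 there were 15 and 10, and without replicate 1 the falls came to 32. A single DMSO library also mattered, as 39 rises passed without DMSOs2 replicate 2 and 175 without DMSOs2 replicate 1.

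**Figure D2:**
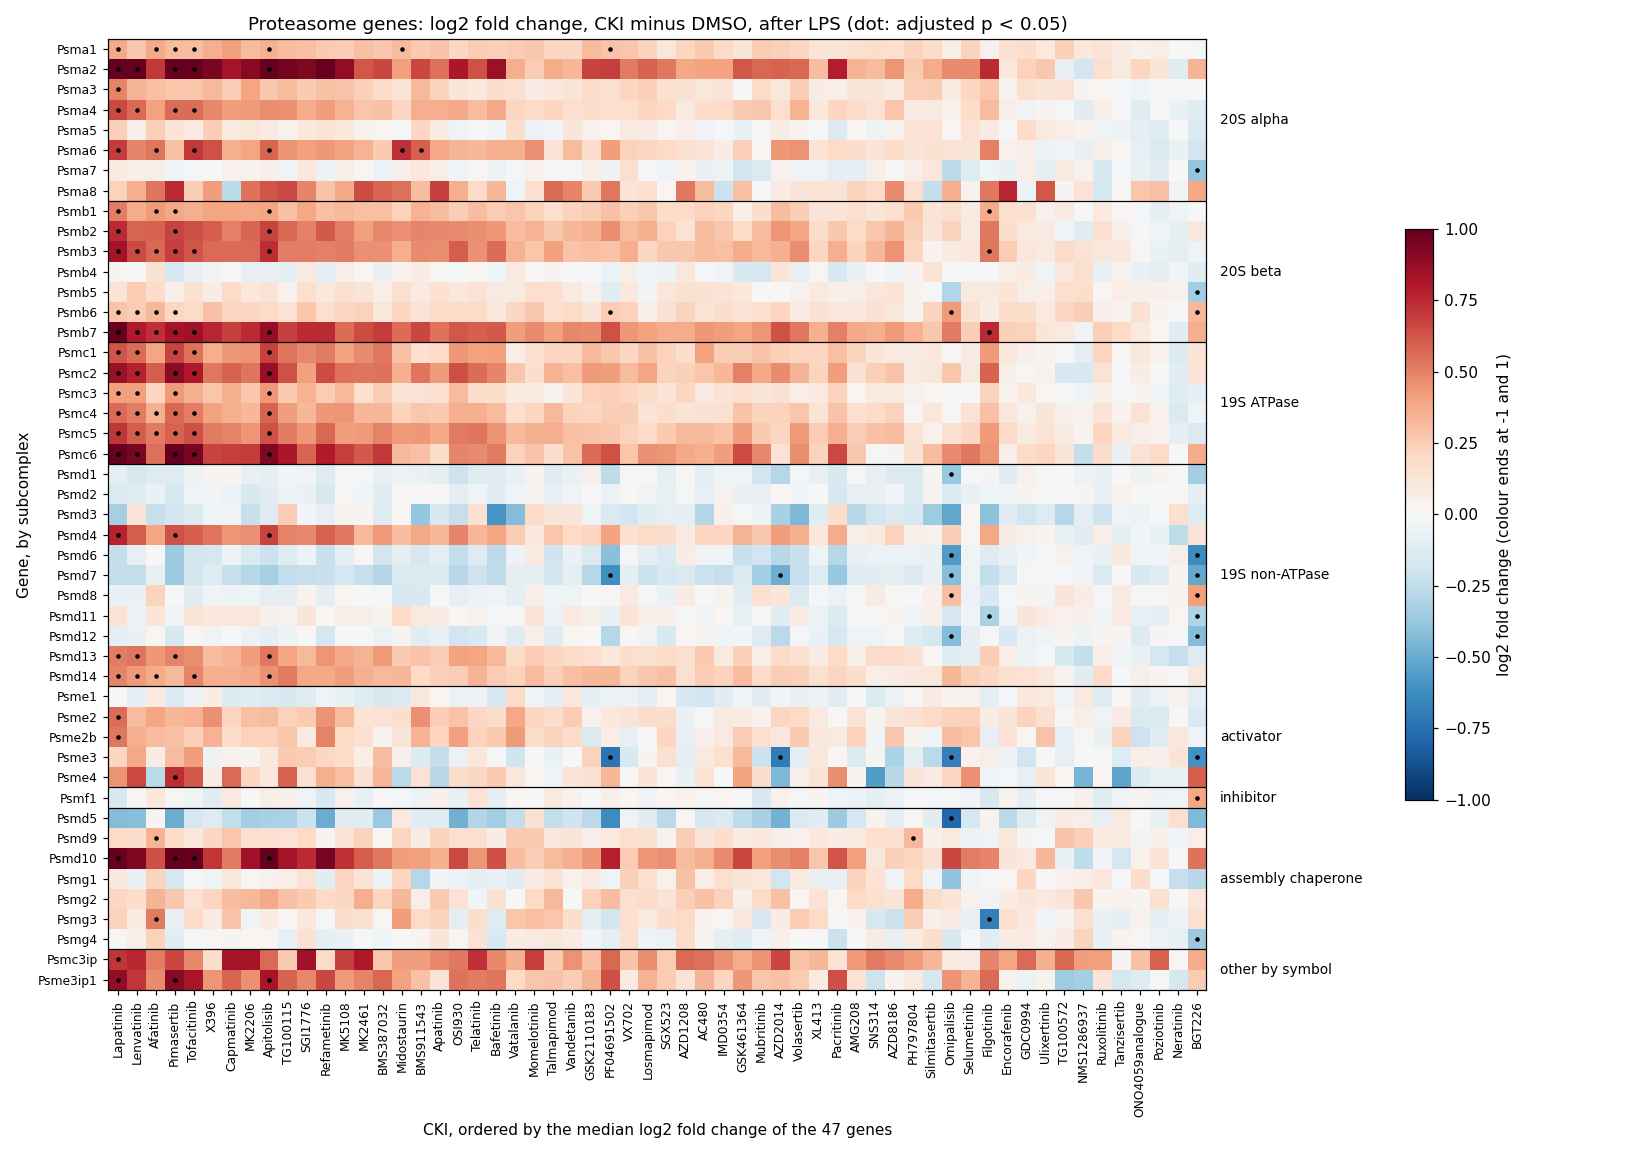
Log2 fold change (CKI minus DMSO) of the 47 genes (rows, by subcomplex) in the 58 CKIs (columns, ordered by the median over the genes), with a colour scale that ends at -1 and 1 and a dot where the adjusted p was under 0.05. The ATPase rows are red over most columns with all their 31 calls rises, while the rows of Psmd6, Psmd7 and Psme3 hold falls in a few columns.

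Because many members moved together, their promoters were searched for shared motifs. RefSeq gave a window (250 bases before to 50 after the start, build GRCm38.p6, the release of mm10 that the table's gene starts match) for 39 of the 47 members and 9131 genes tested. The motifs searched on both strands were TGACNNNGC, the core of the antioxidant response element that NRF1 and NRF2 bind, TGACTCA, an AP-1 site (it overlaps the first motif wherever GC follows it), and CCAAT, the NF-Y box. CCAAT was found in 14 of the 39 member promoters (35.9%) and 39.4% of all. TGACNNNGC was in 6 (15.4%) and 14.9% of all, and TGACTCA in 1 (2.56%) and 3.48% of all. The shares were thus near those of all genes. CCAAT lay in 5 of the 7 alpha promoters. The 6 members below were those called in the most CKIs, with ties settled by the mean size of their log2 fold change, among promoters in which a motif and the 10 bases on either side lay upstream of the start. Psmb6 was left out by this, since its TGACNNNGC began 9 bases before the start, and Psmc1 and Psmd14 were tied with the last of the 6 by their number of CKIs. The 6 are written 5′ to 3′ on the strand of the gene with the motif, on either strand, in capitals. The motif began 43 bases before the start in Psmb3, 98 in Psma1, 29 in Psma6, 54 in Psma2, 227 in Psmc6 (TGACNNNGC, read on the opposite strand) and 28 in Psmc2.
Psmb3, chr11:97703381-97703405 (+ strand): ggcccgccagCCAATggggaggatt
Psma1, chr7:114276200-114276224 (- strand): gagcttcctgCCAATcccacgttct
Psma6, chr12:55384183-55384207 (+ strand): ccactaggtgCCAATggaattcctg
Psma2, chr13:14613178-14613202 (+ strand): tgactctcctCCAATcagagcaaag
Psmc6, chr14:45329587-45329615 (+ strand): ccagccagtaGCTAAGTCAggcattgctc
Psmc2, chr5:21785237-21785261 (+ strand): cggcctcgcgCCAATgcgcgcggcc

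The most calls fell in 5 CKIs, each call a rise: 24 members in Lapatinib (an EGFR and ERBB2 inhibitor), 19 in Pimasertib (MEK), 18 in Apitolisib (PI3K and mTOR), 13 in Lenvatinib (VEGF receptors) and 13 in Tofacitinib (JAK). Beside these counts, the share of all genes tested that was raised was 18.1% in Lapatinib, 16% in Pimasertib, 12.7% in Apitolisib, 11.4% in Lenvatinib and 9.02% in Tofacitinib. The members' shares were 51.1%, 40.4%, 38.3%, 27.7% and 27.7%. No member was lowered in them, beside 5.26%, 5.68%, 3.2%, 0.802% and 0.857% of all genes in the same order. Raised in all 5 were 8 members, and 14 in at least 4, counts that were not made over all genes. The median log2 fold change of the 47 members was 0.38 in Lapatinib against 0.11 for all genes. It was 0.30 against 0.12 in Pimasertib, 0.27 against 0.11 in Apitolisib, 0.34 against 0.18 in Lenvatinib and 0.28 against 0.17 in Tofacitinib. These 5 CKIs also had a high mitochondrial share, 2.76% ± 0.9 in Lapatinib, 3.66% ± 0.552 in Pimasertib, 2.93% ± 1.31 in Apitolisib, 2.77% ± 0.845 in Lenvatinib and 2.64% ± 1.33 in Tofacitinib (SD, n = 3). Pacritinib (mean 2.83%), TG100115 (2.62%) and SGI1776 (2.60%) had similar shares and no member called, though 0, 8 and 2 were raised with the replicate block. PF04691502 (2.69%) had 2 rises and 2 falls. In a fit with the replicate number and the mitochondrial share as terms, 1 rise was left in Lapatinib (Psmb6) and 0 in each of the other 4, with 171, 83, 4, 3 and 87 genes raised over all genes in the same order. With the replicate block alone the rises numbered 26, 22, 22, 24 and 19. Falls then appeared, 3 in Lapatinib, 4 in Pimasertib, 3 in Apitolisib and 2 in Lenvatinib. Of the neutrophil markers, S100a8 and S100a9 were raised in Lapatinib (1.58 and 1.77 on the log2 scale) and Pimasertib (1.66 and 1.97), and none was called in the other 3, while Elane was called in none of the 5 (-0.49 in Lapatinib). The markers summed to 703 to 961 in Lapatinib and 785 to 942 in Pimasertib, above the 172 to 520 of DMSO. The sums overlapped DMSO in the others, with 417 to 825 in Apitolisib, 395 to 852 in Lenvatinib and 341 to 1160 in Tofacitinib. Of the 8 macrophage markers 3, 2, 1, 1 and 1 were raised in the same order, and 1 was lowered in Tofacitinib. Cd68 had 1.53, 1.61, 1.48 and 1.27 on the log2 scale in the first 4, and was not called in Tofacitinib (1.24). Of the 4 LPS response genes (Tnf, Il1b, Cxcl10, Il6) 1, 0, 1, 0 and 2 were raised and 0 lowered. The part of all these genes in the rises was not tested.

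Among the alpha genes, Psma2 rose in all 5. Its DMSO values were 502 to 1375 (median 716). The samples held 2034, 2045 and 2131 with Lapatinib (log2 fold change 1.45 ± 0.37 (SE), adjusted p = 0.00734). Psma2 values with Pimasertib were 1517, 2145 and 2288 (log2 fold change 1.36 ± 0.37 (SE), adjusted p = 0.00678). In Apitolisib, Psma2 had 1737, 1656 and 2334 (log2 fold change 1.32 ± 0.37 (SE), adjusted p = 0.0174). The samples of these 3 CKIs all lay above every DMSO sample. With Lenvatinib they held 1691, 1168 and 2175 (log2 fold change 1.10 ± 0.37 (SE), adjusted p = 0.0392) and with Tofacitinib 1868, 1792 and 1281 (log2 fold change 1.10 ± 0.37 (SE), adjusted p = 0.0425), where the lowest sample of each lay within the DMSO range. Psma4 rose in 4 of the 5, Psma1 in 4, Psma6 in 3 and Psma3 in Lapatinib alone (log2 fold change 0.49 ± 0.12 (SE), adjusted p = 0.00698), while Psma5, Psma7 and Psma8 were not called. Among the beta genes, Psmb3 (a structural subunit) and Psmb7 rose in all 5. Psmb3 had 804 to 1178 (median 1093.5) in DMSO and 1639, 2098 and 1841 with Lapatinib (log2 fold change 0.83 ± 0.20 (SE), adjusted p = 0.00633), without overlap. Psmb1 and Psmb2 rose in Lapatinib, Pimasertib and Apitolisib, Psmb6 in Lapatinib, Pimasertib and Lenvatinib, and Psmb4 and Psmb5 in none.

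The 19S ATPases moved together, with 6 of 6 raised in Lapatinib, Pimasertib, Apitolisib and Lenvatinib and 5 of 6 in Tofacitinib, where Psmc3 had 0.35 (adjusted p = 0.0662). Psmc6, one of the ring's ATPases, had the largest change of them in each of the 5. Its DMSO values were 309 to 654 (median 401.5) and its samples 854, 882 and 896 with Lapatinib (log2 fold change 1.06 ± 0.26 (SE), adjusted p = 0.00696). Pimasertib gave 735, 862 and 949 for Psmc6 (log2 fold change 1.00 ± 0.26 (SE), adjusted p = 0.00564). Psmc6 values with Apitolisib were 818, 691 and 907 (log2 fold change 0.93 ± 0.26 (SE), adjusted p = 0.0184). In Lenvatinib, Psmc6 had 801, 686 and 974 (log2 fold change 0.95 ± 0.26 (SE), adjusted p = 0.0245). Tofacitinib gave 885, 920 and 648 for Psmc6 (log2 fold change 0.94 ± 0.26 (SE), adjusted p = 0.0209). Of these 15 samples only 1, of Tofacitinib, lay inside the DMSO range. Psmc2, another ATPase, had 403 to 760 (median 522.5) in DMSO and 871, 810 and 1053 with Lenvatinib (log2 fold change 0.77 ± 0.25 (SE), adjusted p = 0.0368), without overlap. Of the non-ATPase genes, 3, 2, 3, 2 and 1 of 11 were raised in the same order of CKIs, and their median lay between -0.13 and -0.04. The ones raised were Psmd4 (a ubiquitin receptor), Psmd13 and Psmd14 (the deubiquitinase of the lid).

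Of the activators, only Psme2 and its copy Psme2b rose in Lapatinib (0.56 and 0.52, with adjusted p of 0.0149 and 0.0337) and Psme4 in Pimasertib (log2 fold change 0.74 ± 0.28 (SE), adjusted p = 0.0465), and their samples overlapped DMSO for Psme2b and Psme4. Among the 7 chaperones only Psmd10 (gankyrin) rose, in 4 of the 5. It had 195 to 463 (median 238.5) in DMSO and 589, 643 and 571 with Lapatinib (log2 fold change 1.19 ± 0.34 (SE), adjusted p = 0.0108). Psmd10 values with Pimasertib were 552, 702 and 628 (log2 fold change 1.25 ± 0.34 (SE), adjusted p = 0.00742). In Apitolisib, Psmd10 had 618, 476 and 595 (log2 fold change 1.09 ± 0.34 (SE), adjusted p = 0.0249). Tofacitinib gave 607, 667 and 400 for Psmd10 (log2 fold change 1.06 ± 0.34 (SE), adjusted p = 0.0381). With Lenvatinib the value was 0.93 (adjusted p = 0.0533). Psme3ip1, which is no proteasome part, had 350, 350 and 371 with Pimasertib against 125 to 239 (median 201) in DMSO (log2 fold change 0.91 ± 0.30 (SE), adjusted p = 0.0234).

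Single libraries decided many of these rises. In Lapatinib 13 passed without Lapatinib replicate 3. In Pimasertib 6 and 2 passed without its replicates 2 and 3, and 8 without DMSOs2 replicate 2. In Apitolisib 6 and 0 passed without its replicates 2 and 3, and 1 without DMSOs2 replicate 2. For Lenvatinib the counts were 2, 3 and 0 without its replicates 1, 2 and 3. They were 3 without DMSOs1 replicate 3, 22 without DMSOs2 replicate 1, 0 without DMSOs2 replicate 2 and 8 without DMSOs2 replicate 3. Tofacitinib kept 2, 0 and 4 without its replicates 1, 2 and 3, 7 without DMSOs1 replicate 2 or DMSOs1 replicate 3, and 0 without DMSOs2 replicate 2. With libraries left out in turn, the log2 fold change of Psma2 ran from 1.25 to 1.71 in Lapatinib and from 0.82 to 1.27 in Tofacitinib. That of Psmc6 ran from 0.88 to 1.29 and from 0.67 to 1.10. That of Psmd10 ran from 1.03 to 1.46 and from 0.80 to 1.28, above 0 throughout. DMSOs2 replicate 2 had the lowest ATPase level (-0.34 on the log2 scale from the DMSO mean) and the lowest mitochondrial share (0.759%) of the DMSO samples, and DMSOs2 replicate 1 the highest of both (0.33 and 1.94%).

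**Figure D3:**
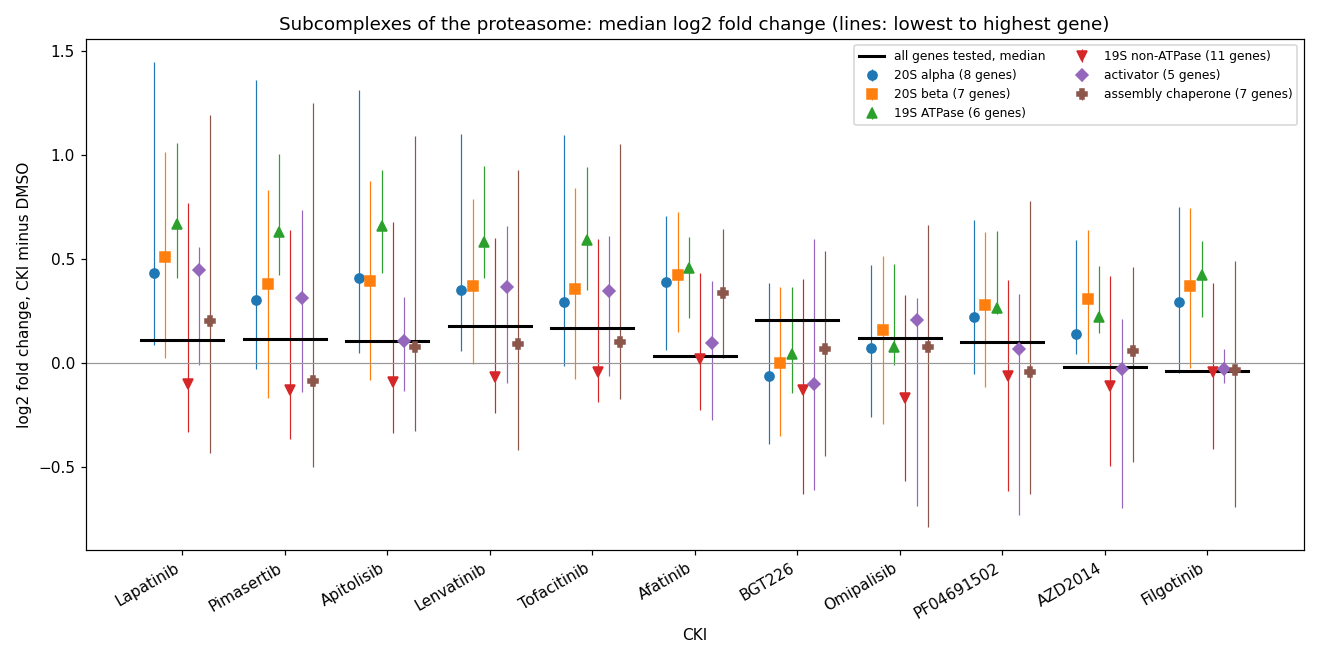
Median log2 fold change (CKI minus DMSO) of each subcomplex in the 11 CKIs described, with lines from the lowest to the highest gene and a thick bar at the median of all genes tested. The ATPase medians lie between 0.58 and 0.67 in the 5 CKIs with the most calls, where the non-ATPase medians lie between -0.13 and -0.04.

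Across the 59 group means, the level of Psmc6 followed the mitochondrial share with a Pearson r of 0.894, Psmd10 with 0.891 and Psma2 with 0.849, whereas Psmd7 had -0.567, Psmd5 -0.615 and Psmd2 -0.655. Both quantities come from the same libraries, so these are descriptions with no test. Whether the mitochondrial share plays a part in the rises was not tested beyond the fit with that share as a term.

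**Figure D4:**
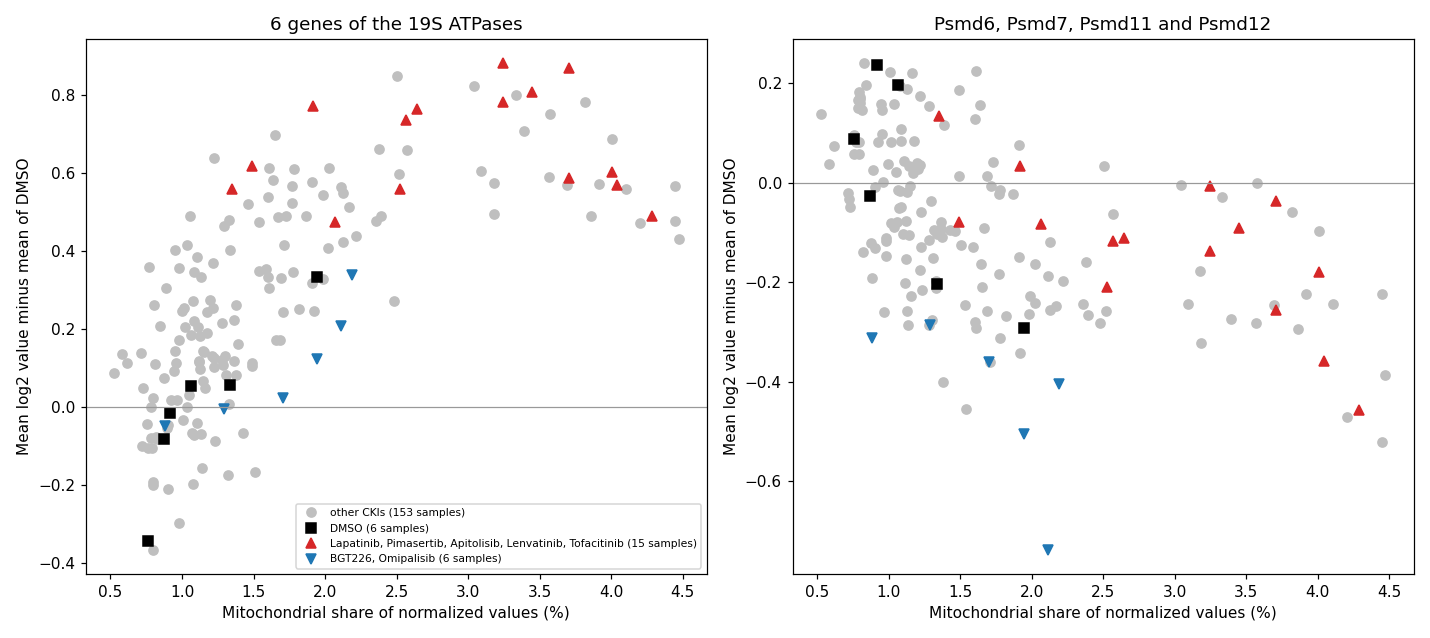
Mean log2 level of the 6 ATPase genes and of Psmd6, Psmd7, Psmd11 and Psmd12, lid genes picked after their values were seen. Each level is minus its DMSO mean, against the mitochondrial share of the normalized values (%), for the 180 samples. Non-ATPase genes outside the panel went both ways. Over the group means r was 0.723 for Psmd14 and 0.760 for Psmd4, and -0.655 for Psmd2 and -0.295 for Psmd8. The DMSO samples span 0.759% to 1.94%, and the ATPase level is higher where the share is higher (Psmc6, r = 0.894 over 59 group means).

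The other 6 CKIs with several calls or with falls are described next and were chosen after their values were seen. Afatinib, another EGFR and ERBB2 inhibitor, raised 11 members (beside 9.06% of all genes) and lowered 0 (beside 12.8%), at a mitochondrial share of 1.58% ± 0.662 (SD, n = 3), inside the DMSO range of 0.759% to 1.94%. With the block and with the block and mitochondrial share, 18 members were raised in either fit. The rises were Psma1, Psma6, Psmb1, Psmb3, Psmb6, Psmb7, Psmc4, Psmc5, Psmd14, Psmd9 and Psmg3, and no sample of them overlapped DMSO. Overlap was not counted over all genes, and these members had been picked by their call. Psmb6 had 4248, 4576 and 3987 against 3277 to 3693 (median 3324.5) in DMSO (log2 fold change 0.32 ± 0.08 (SE), adjusted p = 0.00237). Psma1 had 1844, 1946 and 1944 against 1163 to 1702 (median 1513) (log2 fold change 0.38 ± 0.10 (SE), adjusted p = 0.00305), and Psmb7 1083, 1131 and 948 against 393 to 896 (median 627) (log2 fold change 0.73 ± 0.25 (SE), adjusted p = 0.0244). The chaperones Psmd9 (log2 fold change 0.34 ± 0.09 (SE), adjusted p = 0.00516) and Psmg3 (log2 fold change 0.52 ± 0.17 (SE), adjusted p = 0.0182) changed less than 0.6 on the log2 scale. The median of the members was 0.34 against 0.03 for all genes, with 2 of 6 ATPases raised. The count was 3 and 1 without Afatinib replicates 1 and 2, and 4 without DMSOs2 replicate 2. Psma2 had 1533, 1371 and 900 with Afatinib (log2 fold change 0.71 ± 0.37 (SE), adjusted p = 0.155), and Psmc6 745, 684 and 457 (log2 fold change 0.55 ± 0.26 (SE), adjusted p = 0.120).

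Of the 20 falls, 18 were found with inhibitors of PI3K and mTOR or of mTOR (BGT226, Omipalisib, PF04691502 and AZD2014). In the same order, these held 803, 1037, 536 and 1719 of the 12195 lowered pairs of all genes tested. With the replicate block, falls over all CKIs numbered 58, of which these 4 CKIs held 11, 10, 6 and 6. Psmd7 was then lowered in 12 CKIs and Psmd6 in 9. BGT226 lowered 8 members and raised 3 (beside 6.32% and 24.1% of all genes). Omipalisib lowered 6 and raised 2 (beside 8.16% and 17.5%). PF04691502 lowered 2 and raised 2 (beside 4.22% and 8.86%). AZD2014 lowered 2 and raised 0 (beside 13.5% and 6.06%). Apitolisib, of the same target class, lowered none. The neutrophil marker Elane was also lowered in BGT226 (-1.86 on the log2 scale), Omipalisib (-3.69) and PF04691502 (-1.57) and not called in AZD2014 (-0.14), from values of 9 to 32 (median 21.5) in DMSO, and its part in the falls was not tested. The other neutrophil markers tested were not called there, and the 3 tested had medians of -0.32, -0.56 and -0.22. Summed neutrophil markers were 128 to 355, 120 to 209 and 137 to 390, overlapping the 172 to 520 of DMSO. Psmd7, a subunit of the lid of the cap, and Psme3 fell in BGT226, Omipalisib, PF04691502 and AZD2014. Psmd7 had 1185 to 1866 (median 1622.5) in DMSO and 879, 1076 and 1290 with BGT226 (log2 fold change -0.51 ± 0.16 (SE), adjusted p = 0.00761). Psmd7 values with Omipalisib were 1030, 1046 and 1354 (log2 fold change -0.43 ± 0.16 (SE), adjusted p = 0.0346). In PF04691502, Psmd7 had 888, 956 and 1164 (log2 fold change -0.61 ± 0.16 (SE), adjusted p = 0.00450). AZD2014 gave 976, 1109 and 1173 for Psmd7 (log2 fold change -0.49 ± 0.16 (SE), adjusted p = 0.0160). The samples lay below every DMSO sample with PF04691502 and AZD2014 and overlapped them with BGT226 and Omipalisib. Psme3 had 86 to 140 (median 132) in DMSO and 96, 75 and 62 with BGT226 (log2 fold change -0.61 ± 0.18 (SE), adjusted p = 0.00589). Psme3 values with Omipalisib were 54, 99 and 71 (log2 fold change -0.69 ± 0.18 (SE), adjusted p = 0.00246). In PF04691502, Psme3 had 71, 59 and 83 (log2 fold change -0.73 ± 0.18 (SE), adjusted p = 0.00350). AZD2014 gave 67, 61 and 91 for Psme3 (log2 fold change -0.70 ± 0.18 (SE), adjusted p = 0.00239). Only with PF04691502 did all of its samples lie below DMSO. Among single libraries, the call of Psmd7 was lost without replicate 1 of BGT226 (values from -0.65 to -0.37), PF04691502 (-0.72 to -0.51) or AZD2014 (-0.59 to -0.42), and with AZD2014 also without DMSOs2 replicate 2. With Omipalisib it was lost without its replicates 1 or 2, DMSOs1 replicate 3, DMSOs2 replicate 2 or DMSOs2 replicate 3 (-0.55 to -0.30). The call of Psme3 was lost without BGT226 replicate 3 (-0.98 to -0.37), Omipalisib replicate 1 (-0.91 to -0.48) and PF04691502 replicate 2 (-0.94 to -0.49).

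Psmd6 and Psmd12, also of the lid, fell with BGT226 and Omipalisib. Psmd6 had 560, 814 and 747 with BGT226 (log2 fold change -0.63 ± 0.15 (SE), adjusted p = 0.000552). Psmd6 values with Omipalisib were 656, 729 and 811 (log2 fold change -0.57 ± 0.15 (SE), adjusted p = 0.00281) against 857 to 1250 (median 1121.5) in DMSO, without overlap. Psmd12 had 541, 716 and 689 (log2 fold change -0.44 ± 0.13 (SE), adjusted p = 0.00446) and 611, 682 and 645 (log2 fold change -0.43 ± 0.13 (SE), adjusted p = 0.00637) with these CKIs in turn, against 715 to 1050 (median 840.5) in DMSO, overlapping with BGT226 alone, where the call was lost without BGT226 replicate 1 (-0.54 to -0.31). Psmd11 fell with BGT226 (-0.30, adjusted p = 0.0431), and Psmd1, a scaffold of the base of the cap, with Omipalisib (-0.38, adjusted p = 0.0447). The chaperone Psmd5 fell with Omipalisib (log2 fold change -0.79 ± 0.26 (SE), adjusted p = 0.0162) and Psmg4 with BGT226 (log2 fold change -0.37 ± 0.14 (SE), adjusted p = 0.0364), as did Psma7 (1679, 1737 and 1805 against 1902 to 2608 (median 2359), log2 fold change -0.39 ± 0.11 (SE), adjusted p = 0.00429). The call of Psmd5 was lost without Omipalisib replicate 1 or 2 or DMSOs1 replicate 3 (-0.96 to -0.67). No ATPase was called in these 4 CKIs, where their median ran from 0.05 with BGT226 to 0.27 with PF04691502.

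Psmd8, the most abundant non-ATPase gene, went the other way. It had 5145, 5275 and 5961 with BGT226 (log2 fold change 0.41 ± 0.10 (SE), adjusted p = 0.000453). In Omipalisib, Psmd8 had 4896, 5067 and 5185 (log2 fold change 0.30 ± 0.10 (SE), adjusted p = 0.0159) against 3343 to 4692 (median 4246) in DMSO, without overlap. Psmf1 had 464, 449 and 533 with BGT226 against 308 to 403 (median 386) (log2 fold change 0.38 ± 0.10 (SE), adjusted p = 0.00226). After rescaling by the median of ratios, the 3 rises with BGT226 no longer passed (log2 fold changes of 0.12 for Psmb6, 0.21 for Psmd8 and 0.18 for Psmf1, with adjusted p of 0.239, 0.115 and 0.202). Nor did Psmd8 with Omipalisib (0.19, adjusted p = 0.153). In that scaling 15 members were lowered with BGT226, 10 with Omipalisib and 5 with PF04691502, and 5 were raised with AZD2014. The median of the members minus that of all genes was then -0.26 with BGT226 and -0.04 with Omipalisib. It was 0.06 with PF04691502 and 0.14 with AZD2014. Shares of all genes called are not given for that scaling or for the fits that follow here. With the replicate block the falls numbered 11, 10, 6 and 6 in the order BGT226, Omipalisib, PF04691502 and AZD2014, and 11, 10, 5 and 6 with the mitochondrial share added. Mitochondrial shares were 1.57% ± 0.63, 1.81% ± 0.465, 2.69% ± 1.53 and 1.16% ± 0.327 in that order (SD, n = 3). The falls with BGT226 numbered 3 without its replicate 1 and 5 without DMSOs2 replicate 3, and those with Omipalisib 2 without its replicate 1, 3 without DMSOs1 replicate 3 and 10 without DMSOs2 replicate 1. With PF04691502, 1 fall passed without its replicate 1 and 1 without its replicate 2, and 4 without DMSOs2 replicate 1. With AZD2014, 1 passed without its replicate 1 and 1 without DMSOs2 replicate 2. Psmd6 and Psmd8 with BGT226 passed with each single library, or each replicate number, left out in turn (-0.74 to -0.47 and 0.33 to 0.48). The rise of Psmd8 with Omipalisib was lost without Omipalisib replicate 2 or 3 or DMSOs2 replicate 1 (0.20 to 0.35).

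**Figure D5:**
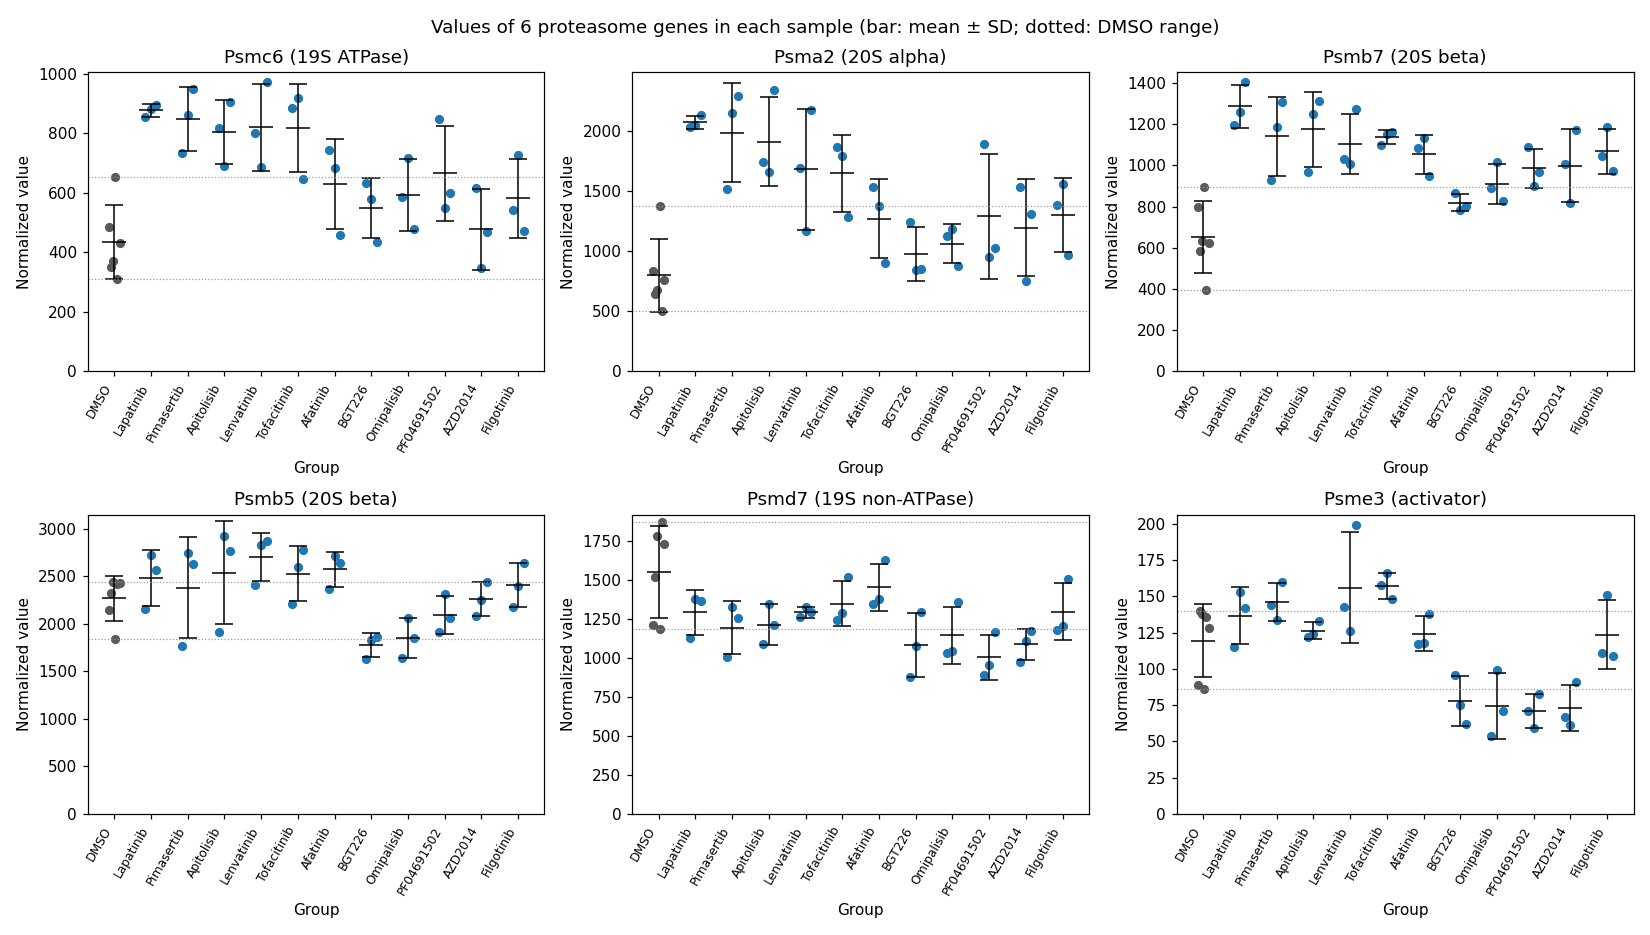
Normalized values of Psmc6, Psma2, Psmb7, Psmb5, Psmd7 and Psme3 in DMSO (6 samples) and 11 CKIs (3 samples each), with mean ± SD bars and dotted lines at the DMSO range. Psmc6 samples of Lapatinib (854 to 896) lie above the DMSO range that ends at 654, and Psme3 samples of PF04691502 (59 to 83) lie below the DMSO range that starts at 86.

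Of the catalytic subunits of the core, Psmb7 rose in 7 CKIs, Psmb6 in 7 and Psmb5 in none. Afatinib, Lapatinib, Lenvatinib and Pimasertib raised both Psmb7 and Psmb6. Psmb7 had 1197, 1260 and 1404 with Lapatinib (log2 fold change 1.02 ± 0.25 (SE), adjusted p = 0.00677). Apitolisib gave 968, 1248 and 1311 for Psmb7 (log2 fold change 0.88 ± 0.25 (SE), adjusted p = 0.0184). Psmb7 values with Tofacitinib were 1101, 1154 and 1160 (log2 fold change 0.84 ± 0.25 (SE), adjusted p = 0.0276). In Lenvatinib, Psmb7 had 1029, 1008 and 1272 (log2 fold change 0.79 ± 0.25 (SE), adjusted p = 0.0344). Pimasertib gave 929, 1189 and 1306 for Psmb7 (log2 fold change 0.83 ± 0.25 (SE), adjusted p = 0.0136), all above the DMSO range of 393 to 896 (median 627). Psmb6 changed by less, at most 0.43 with Omipalisib, where it had 4520, 4653 and 4623 (log2 fold change 0.43 ± 0.08 (SE), adjusted p = 1.77e-05) and passed with each single library, or each replicate number, left out in turn (0.40 to 0.47). With BGT226 Psmb6 had 4565, 3941 and 4330 (log2 fold change 0.32 ± 0.08 (SE), adjusted p = 0.00107) and with Lapatinib 3962, 4616 and 3969 (log2 fold change 0.29 ± 0.08 (SE), adjusted p = 0.0109). Psmb5 fell with BGT226, with 1635, 1830 and 1866 against 1842 to 2446 (median 2376) in DMSO (log2 fold change -0.35 ± 0.13 (SE), adjusted p = 0.0305), a call lost without BGT226 replicate 1 or 2 and without any of DMSOs1 replicate 3, DMSOs2 replicate 2 and DMSOs2 replicate 3, with values from -0.41 to -0.29. Over the 58 CKIs its log2 fold change ran from -0.35 to 0.25. In the immunoproteasome, whose subunits replace the catalytic ones after interferon, none of Psmb8, Psmb9 and Psmb10 was called in the 11 CKIs. With the replicate block 4 calls appeared, Psmb10 in Lapatinib (0.46, adjusted p = 0.0367) and Afatinib (adjusted p = 0.0310), and Psmb9 in Afatinib (0.31, adjusted p = 0.0486) and Filgotinib (-0.33, adjusted p = 0.0368). Without the block the nearest was Psmb10 with Afatinib (log2 fold change 0.49 ± 0.19 (SE), adjusted p = 0.0535), with 2380, 2089 and 1823 against 1208 to 1739 (median 1549.5) in DMSO.

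Filgotinib, a JAK inhibitor like Tofacitinib, raised Psmb1, Psmb3 and Psmb7 (3 members beside 6.1% of all genes) and lowered Psmd11 and Psmg3 (2 beside 14.6%). Psmg3, an early chaperone of the alpha ring, had 100, 81 and 113 against 139 to 177 (median 158) in DMSO (log2 fold change -0.69 ± 0.17 (SE), adjusted p = 0.00132), without overlap, and was thus called in opposite directions with Afatinib and Filgotinib. Psmb7 had 1048, 1187 and 971 (log2 fold change 0.75 ± 0.25 (SE), adjusted p = 0.0222). The rises were lost (0) without Filgotinib replicate 1 or 2 or without DMSOs2 replicate 2, numbered 1 without Filgotinib replicate 3 or DMSOs1 replicate 2 and 8 without DMSOs2 replicate 1, and were 9 after rescaling by the median of ratios. The falls numbered 1 without Filgotinib replicate 1 or 2 and without any of DMSOs1 replicate 2, DMSOs1 replicate 3, DMSOs2 replicate 2 and DMSOs2 replicate 3. The remaining calls were Psma1 and Psma6 with Midostaurin, Psma6 with BMS911543 and Psmd9 with PH797804, and Psma1 and Psmb6 with PF04691502, both lost without PF04691502 replicate 1 or 2 or DMSOs2 replicate 3 (0.21 to 0.35 and 0.17 to 0.34).

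The 8 members not called in the fit reported had narrow ranges where they were abundant. With the replicate block, Psmg2 was raised in 7 CKIs, Psma5 in 2 and Psma8 in 1. Psmd3 was then lowered in 3, Psmg1 in 2 and Psmd2 in 1, while Psmb4 and Psme1 stayed uncalled. Psma5 ran from -0.14 to 0.24 over the 58 CKIs, Psmb4 from -0.17 to 0.16, Psmd2 (a scaffold of the base) from -0.18 to 0.04 and Psme1 from -0.19 to 0.19. Psmd3 ran from -0.59 with Bafetinib to 0.25 and Psma8 from -0.27 to 0.76, both low genes, and the chaperones Psmg1 from -0.40 to 0.29 and Psmg2 from -0.03 to 0.38.

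Genes around the proteasome were counted by list in the 11 CKIs, and the values of those named were seen before they were named. The share of all genes raised in these CKIs, given above, ran from 6.06% in AZD2014 to 24.1% in BGT226. Of the 5 ubiquitin genes, 1 to 4 were raised in each CKI and 0 lowered. Ubb, a polyubiquitin gene, had 14095 to 21998 (median 16982.5) in DMSO and 54085, 53957 and 50496 with Omipalisib (log2 fold change 1.58 ± 0.13 (SE), adjusted p = 9.19e-20). Ubb values with BGT226 were 48217, 38678 and 39343 (log2 fold change 1.25 ± 0.13 (SE), adjusted p = 2.72e-14). In PF04691502, Ubb had 42456, 41504 and 34303 (log2 fold change 1.15 ± 0.13 (SE), adjusted p = 1.68e-11). AZD2014 gave 36986, 33668 and 35319 for Ubb (log2 fold change 1.00 ± 0.13 (SE), adjusted p = 8.55e-10). These 4 CKIs are those in which Psmd7 and Psme3 fell, and no sample overlapped DMSO. The rise was not particular to them. Ubb was also raised in Afatinib (0.70), Pimasertib (0.53), Apitolisib (0.50), Lenvatinib (0.48) and Lapatinib (0.41), where neither Psmd7 nor Psme3 was called. Ubb was not called in Tofacitinib (0.36) or Filgotinib (0.04).

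Of the 15 proteasome-associated genes, 5 were raised in Lapatinib, 6 in Pimasertib, 3 in Apitolisib, 4 in Lenvatinib and 3 in Tofacitinib, with 0 lowered, beside 18.1%, 16%, 12.7%, 11.4% and 9.02% of all genes. In the other 6 CKIs 0 to 3 were raised, and 1 was lowered in Afatinib, 1 in Omipalisib and 2 in AZD2014. Pomp, the maturation factor of the core, rose in these 5 and in Afatinib, with 1639, 1643 and 1536 with Lapatinib against 662 to 1178 (median 816) (log2 fold change 0.90 ± 0.22 (SE), adjusted p = 0.00696). Its call was lost without 1 of several single libraries in Afatinib (0.43 to 0.71), Tofacitinib (0.53 to 0.78) and Lenvatinib (0.55 to 0.87), namely Afatinib replicate 1 or 2, Tofacitinib replicate 1 or 2 and Lenvatinib replicate 1 or 3, and without DMSOs1 replicate 3 or DMSOs2 replicate 2 in each of the 3. In Afatinib and Tofacitinib it was also lost without DMSOs1 replicate 2 or DMSOs2 replicate 3. It was lost without Apitolisib replicate 3 or DMSOs2 replicate 2 in Apitolisib (0.61 to 1.00) and without Pimasertib replicate 3 in Pimasertib (0.61 to 1.13). Zfand2a, a heat-shock and arsenite-inducible partner of the 19S cap, had 1647, 1738 and 1265 with BGT226 (log2 fold change 3.09 ± 0.26 (SE), adjusted p = 2.09e-20). Zfand2a values with Omipalisib were 954, 1125 and 665 (log2 fold change 2.31 ± 0.26 (SE), adjusted p = 3.41e-13) against 129 to 282 (median 175.5) in DMSO. Zfand2a was also raised in PF04691502 (0.87), Pimasertib (0.74) and Afatinib (0.74), calls that were lost without some single libraries. Zfand5, which activates the proteasome, had 628, 302 and 415 with PF04691502 against 90 to 285 (median 118.5) (log2 fold change 1.63 ± 0.34 (SE), adjusted p = 0.000270). The rise of Zfand5 was not particular to PF04691502. It was also called in Pimasertib (1.23), Apitolisib (1.14), Lapatinib (1.03), BGT226 (0.96), Lenvatinib (0.95), Filgotinib (0.92) and Omipalisib (0.85). These further calls were each lost without some single libraries.

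Of the 8 genes of the NRF1 pathway, which induces proteasome genes when the proteasome is inhibited, 4 were raised in BGT226 and 5 in Omipalisib with 0 lowered, beside 24.1% and 17.5% of all genes. These were Nfe2l1, Maff, Mafg and Mafk in both, with Nfe2l2 added in Omipalisib. Ddi2, Ngly1 and Vcp were raised in neither (Vcp -0.31 and -0.36, lowered only with the replicate block). Mafg was raised in all of the 11 CKIs but AZD2014 (0.66) and Filgotinib (0.67). PF04691502 raised 1 and lowered 0, and AZD2014 raised 0 and lowered 2. In the other 7 CKIs 1 or 2 were raised and 0 to 2 lowered. With the replicate block the calls over the 11 CKIs went from 30 to 47 in this list, from 36 to 55 in the proteasome-associated list and from 31 to 42 in the ubiquitin list, with 0 lost. Nfe2l1, which encodes NRF1, had 1523, 1371 and 2033 with Afatinib (log2 fold change 0.51 ± 0.10 (SE), adjusted p = 6.88e-05). Nfe2l1 values with BGT226 were 1430, 1241 and 1771 (log2 fold change 0.36 ± 0.10 (SE), adjusted p = 0.00274), a call lost without BGT226 replicate 3 (0.21 to 0.52). In Omipalisib, Nfe2l1 had 1439, 1342 and 1724 (log2 fold change 0.39 ± 0.10 (SE), adjusted p = 0.00172), a call lost without Omipalisib replicate 3 (0.27 to 0.51). Lapatinib gave 821, 1037 and 1099 for Nfe2l1 (log2 fold change -0.22 ± 0.10 (SE), adjusted p = 0.0901, 0.0278 as adjusted p with the block), against 1030 to 1235 (median 1167.5) in DMSO.

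The members varied together among replicates as well as among CKIs. After the group means were removed, the Pearson r averaged over pairs of members was 0.248 over the 180 samples, beside 0.045 for pairs of all genes tested. Within the ATPases it averaged 0.80, within the alpha genes 0.446, within the beta genes 0.414 and within the non-ATPase genes 0.342. Over the 59 group means the averages were 0.235 for the members, 0.065 for all genes, 0.876 for the ATPases and 0.116 for the non-ATPase genes. Pairs share libraries and their scaling, and no test was made. Between the DMSO sets, DMSOs2 minus DMSOs1, 0 members were called by limma and 0 had an unadjusted p under 0.05 (over all genes 0 and 310), with log2 fold changes from -0.31 for Psmc3ip to 0.40 for Psme4.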

How the data were processed

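RNA of 180 samples was sequenced after SMART-seq2 preparation. Per the study's methods, the authors aligned reads with TopHat2 (2.1.1) to mm10, removed blacklisted regions with bedtools (2.29.2), counted exonic reads of RefSeq genes, scaled the samples on invariant genes and tested with DESeq2 in R 3.6.2. The deposited values are this score, a normalized value rounded to whole numbers, so no count test was run, the depth is unknown, and rounding and scaling can shift low genes. Values per kb are the value divided by exonic length. Log2(value + 1) of 12714 genes with a mean of at least 10 was fitted with limma 3.58.1 (R 4.3.3) with a variance trend, 59 groups together, and p-values were adjusted by Benjamini-Hochberg over all of them. The code was checked on simulated data without a replicate effect. A first criterion, on the share of changed genes called, failed there. It was replaced, after this was seen, by another limited to genes with higher means. Other settings tried were a pseudocount of 0.5 or 10, a minimum mean of 50 or none, median of ratios scaling, no trend, each DMSO set alone, only the groups compared, the replicate block (with and without the mitochondrial share) and leaving out libraries. One alternative, the members without Psmc3ip, Psme3ip1 and Psme2b, was chosen after seeing the data. Replicate numbers are in the labels, and samples of a CKI and DMSO with the same number deviated together (every correlation over 0.1) in 34 of 58 CKIs, 4 of the 5 with the most calls. The members, lists and CKIs described were chosen with earlier results of these data known. Genes named with sample values were those called that rose most and fell most (up to 4 each) in each of the 5 CKIs with the most calls, the 4 raised and 4 lowered in the most CKIs, the highest and lowest per kb and those beside the minimum mean; other genes named were chosen after their values were seen. Promoter sequences are from RefSeq (GRCm38.p6).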

Additional observations from a re-analysis of the deposited data

Results flagged for a closer look

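Psmd13, a non-ATPase subunit of the cap, had 1 DMSO sample far from the others. Its normalized value was 694 in DMSOs2 replicate 2 and 1030 to 1120 in the other 5 DMSO samples. The gap to the nearest sample was 0.789 of the whole range. Of 49 results tested, 47 of them members in DMSO, this was the only 1 flagged. How many flags chance would give was not worked out for members that share libraries, so 1 flag is not read as a result. DMSOs2 replicate 2 was also the lowest DMSO sample for Psmb7 (393), Psmc5 (588) and Psmc6 (309). It was the highest for Psmd2 (2944) and Psmd7 (1866).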

How the results depend on the processing

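Over all CKIs 112 rises and 20 falls passed in 14 CKIs. The replicate block gave 206 and 58 in 27 CKIs, the block with the mitochondrial share 60 and 38, DMSO set 1 alone 24 and 13 in 8 CKIs, DMSO set 2 alone 55 and 13, only the groups compared 49 and 4 in 9 CKIs, no filter 53 and 12, and the median of ratios 71 and 36. The paired fit with the replicate block gave 24 rises in Lenvatinib and falls of 3 in Apitolisib, 3 in Lapatinib, 2 in Lenvatinib and 4 in Pimasertib. With the mitochondrial share added, rises numbered 1 in Lapatinib and 0 in Pimasertib, Apitolisib, Lenvatinib and Tofacitinib. DMSO set 1 alone gave 12 rises in Lapatinib, 7 in Pimasertib and 0 in Apitolisib, Lenvatinib and Tofacitinib, and set 2 alone 10 in Pimasertib, 5 in Apitolisib and 0 in Lenvatinib and Tofacitinib. Under the median of ratios there were 11 rises and 2 falls in Pimasertib, 10 and 1 in Apitolisib, and 1 rise each in Lenvatinib and Tofacitinib. Without a filter there were 9 in Pimasertib, 8 in Apitolisib, 1 in Lenvatinib and 5 in Tofacitinib. Only the groups compared gave 11 in Pimasertib and 0 in Lenvatinib and Tofacitinib. Leaving out libraries gave 6 to 175 rises, 3 to 32 falls and 4 to 18 CKIs in all. In single CKIs the rises ran from 0 to 24 in Lapatinib, 0 to 24 in Pimasertib, 0 to 22 in Apitolisib, 0 to 22 in Lenvatinib and 0 to 18 in Tofacitinib, and the falls from 0 to 1 in Lapatinib and Apitolisib and 0 to 3 in Pimasertib. The cause of these moves was not tested. Of 118 gene and CKI values that passed in the fit reported, 2714 alternative values had the same direction, 1917 of them past the threshold and 797 not. This covers values that passed, and among values that did not pass some changed sign under an alternative. The block lost none of the 118, the block with the mitochondrial share 59. No member passed between the DMSO sets under any alternative run. Depth is unknown, so the error of low genes such as Psma8 rests on the spread between samples alone.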
